A study of Mus musculus with 9 samples.

Results

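The libraries described here came from mouse CD4+ T cells that had been activated through the T cell receptor for 3 days without acacetin. They were chosen by the dose in their labels, 0 μM, and number 3 of the 9 libraries in the series. The other 6 libraries held cells given acacetin, a plant flavonoid, and no comparison between doses is made. Wild-type (WT) naive CD4+ T cells had been purified with a kit from the lymph nodes and spleens of mice and placed on plates coated with antibodies against CD3 and CD28, at 5 μg/ml. The study worked with BALB/c mice. The labels named RPMI 1640 as the medium and the methods IMDM, both with 10% fetal bovine serum. RNA was taken on day 3 and sequenced from Illumina TruSeq libraries. The labels number the libraries as biological replicates and do not say whether each came from its own mouse, so the SDs given below may hold culture or handling differences only.

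CD4+ T cells are the helper arm of adaptive immunity. The CD3 antibody stands in for antigen at the T cell receptor and the CD28 antibody for the co-stimulatory signal of an antigen-presenting cell. Together they drive a resting cell to grow, to make interleukin-2 and its receptor, to take up glucose and amino acids and to divide. Which helper type follows (Th1, Th2, Th17, follicular or regulatory) is set in large part by cytokines in the medium, through lineage transcription factors such as T-bet, GATA3, BCL6 and FOXP3. No polarizing cytokines are named in the labels of these libraries.

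The values were estimated counts per gene entry, with totals of 19972618, 20215281 and 23873709 in replicates 1, 2 and 3. Levels are given as CPM, the count divided by the library total and scaled to a sum of 1000000. CPM scales with transcript length as well as with the number of RNA molecules, so paralogs are set against each other as CPM per kilobase of exon (CPM per kb). An order given in CPM is an order of reads and not of molecules. An entry was taken as expressed at 1 CPM or more in all 3 libraries, and as silent under 0.1 CPM in all 3. Of 25757 entries, 10918 (42.4%) were expressed, 11161 (43.3%) were silent, and 3678 lay between or differed among libraries. Of the silent entries 9250 had 0 counts in every library, which over the summed total allows up to 0.0468 CPM, a limit that covers counting error only. Among 19959 protein-coding entries 52.9% were expressed and 31.7% were silent. The median expressed entry had 35.8 CPM, and 8426 entries had at least 10 CPM in every library.

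The label of the cells was first set against marker genes. All 16 listed CD4 T cell markers were expressed, beside 42.4% of all entries. Cd4, the co-receptor that binds MHC class II, had 777, 767 and 757 CPM. Cd3e, a signalling chain of the T cell receptor complex, had 360, 349 and 359 CPM. Lck, the kinase that phosphorylates that complex, had 551, 560 and 545 CPM, and Cd28 had 271, 272 and 263 CPM. The 3 libraries thus lay within a few percent of each other for each of the defining markers. The marker with the fewest reads was Zbtb7b, the transcription factor that fixes the CD4 fate in the thymus, with 59.2, 65.1 and 61.0 CPM. The summed level of the list ran from 5812 to 5864 CPM.

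Markers of other cells were then counted. Of 102 genes in 12 lists of other cell types, 16 (15.7%) were expressed and 42 (41.2%) were silent, against 42.4% and 43.3% of all entries, and the rest lay between. The silent share was thus near that of all entries and the expressed share below it. Of protein-coding entries alone 52.9% were expressed and 31.7% silent, and beside these the silent share of the lists was higher. No neutrophil and no macrophage or monocyte marker reached 1 CPM in all 3 libraries. The summed macrophage and monocyte list (12 genes) ran from 2.30 to 4.21 CPM and the summed neutrophil list (9 genes) from 0.451 to 0.940 CPM. Fcgr1, Marco, Ly6g, Camp, Csf3r, Clec9a, Siglech and Cd209a had 0 counts in all 3 libraries. In bulk RNA, fewer cells of a type and less RNA per cell cannot be told apart.

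Of the CD8 co-receptor genes, Cd8b1 had 6.46, 6.18 and 8.38 CPM and Cd8a, whose protein is needed for either form of CD8, had 0.601, 0.693 and 0.670 CPM. Among γδ T cell genes, Trdc, the δ chain constant region, had 2.35, 1.68 and 2.56 CPM and was the only 1 of 6 expressed in all libraries. NK cell genes showed Klrk1 (NKG2D) at 4.57 to 5.44 CPM and Eomes, a T-box factor, at 3.27 to 3.91 CPM. Ncr1 had 0, 0 and 0.0419 CPM, and Klrb1c had 0 counts. Klra8 also had 0 counts, but whether the strain of the study carries this gene was not checked.

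A few genes of other lineages were well above the rest of their lists. Ighm, the immunoglobulin μ constant region, had 141, 140 and 147 CPM, whereas the B cell genes Ms4a1 and Cd79b each stayed under 0.8 CPM, Cd79a had 0, 0 and 0.0838 CPM, and Igkc, the κ light chain, had 1.35, 1.93 and 1.13 CPM. Bst2 (tetherin), listed for dendritic cells but also interferon-inducible in T cells, had 49.2 to 52.2 CPM. Pecam1 (CD31), listed for endothelium and also carried by naive lymphocytes, had 54.1 to 56.3 CPM beside Cdh5 at 0, 0.0495 and 0 CPM and Kdr at 0 counts. Of the other listed dendritic cell genes, Zbtb46 was highest, with 0.601, 1.29 and 0.503 CPM.

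Among neuron and muscle genes, Myh7, the cardiac β-myosin heavy chain, had 138, 136 and 134 CPM. Its neighbour in the family, Myh6, the cardiac α-myosin heavy chain, had 6.91, 5.34 and 4.94 CPM. Mbp, the myelin basic protein gene, whose locus also makes a Golli form in lymphocytes, had 129, 129 and 135 CPM. The muscle genes Ckm (0.901, 1.24 and 0.503 CPM), Acta1 (0.150, 0 and 0.251 CPM) and Des (0.0501, 0 and 0.0419 CPM) were low. So were Itga2b, the platelet integrin αIIb, at 6.74 to 7.77 CPM, and Kit at 1.05 to 1.59 CPM. Transcripts of lung, skin and liver were counted at a low level in every library: Scgb1a1, a club cell secretory protein, at 2.60 to 3.36 CPM, Krt10, a keratin, at 2.52 to 3.20 CPM, Sftpc, surfactant protein C, at 1.00 to 1.84 CPM and Alb, albumin, at 1.24 to 1.30 CPM. Where these reads came from was not tested.

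**Figure D1:**
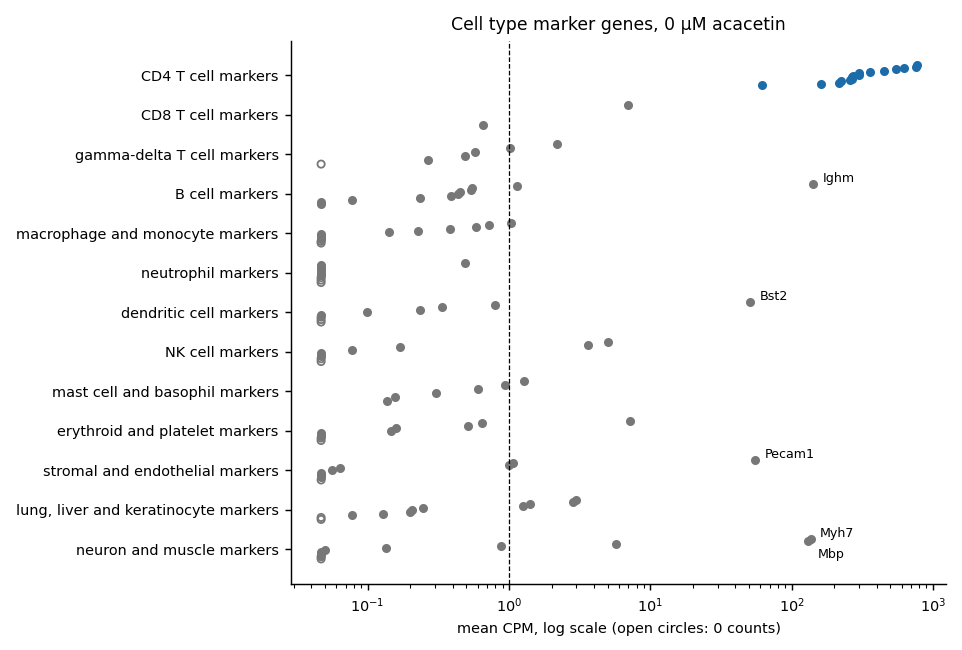
Mean CPM over the 3 libraries (log axis) of each listed marker gene, 1 line per cell type; the dashed line marks 1 CPM, open circles are genes with 0 counts, and genes under the limit of 3 counts are drawn at 0.0468 CPM. All 16 CD4 T cell markers sit to the right of the line, with Cd4 at 767 CPM, and of the other lists only Ighm, Bst2, Pecam1, Myh7 and Mbp rise above 20 CPM.

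The receptor itself was of the αβ kind. Trac, the α chain constant region, took 99.3% ± 0.0387 of the summed CPM per kb of the α, γ and δ constant regions (SD, n = 3). Of the β constant regions Trbc2 took 69.2% ± 0.122 and Trbc1 30.8% ± 0.122. The 2 are near-identical in sequence, so how reads were divided between them depends on the counting. Of 35 Trbv entries, the variable segments of the β chain, 16 were expressed, with Trbv12-2 at 74.95, 77.5 and 78.4 CPM and 27.4% ± 0.485 of the summed Trbv CPM. Trbv13-1 (32.5 to 37.7 CPM), Trbv31 (33.1 to 36.9 CPM) and Trbv1 (21.8 to 23.3 CPM) came next. Of 130 Trav entries 46 were expressed, and the highest, Trav14d-3-dv8, held 5.34% ± 0.542 of their sum. Of all entries 42.4% were expressed, so the share of expressed Trbv entries was near this and that of Trav entries below it. None of 7 Trgv or 6 Trdv entries was expressed. Reads over V segments were thus spread over many segments in each library, as counted without any assembly of receptor sequences.

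Related genes were then set against each other within families. For 159 listed families, of paralogs or of genes grouped by role, the share of each member was taken in the summed CPM per kb. In 47 families 1 member held at least 90% in every library, and in the rest none did. The families were chosen with earlier results of these data known, so these counts describe the listed families only. For 132 families the lowest library of the leading member stood above the highest of the next and the same member led under every gene length that could be tried for it. For the other 27 no order is given, among them the CD3 chains, PKC, STIM, calcineurin, NFAT, NF-κB, JUN, IRF, FOXO, JAK and STAT families and the D and B cyclins, because the leader changed with the length used or the members overlapped.

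Several kinases and adaptors next to the receptor came from narrow choices. Zap70, the kinase that binds phosphorylated CD3, had 150.9 ± 1.27 CPM per kb and 99.96% ± 0.0113 of the pair it forms with Syk, its B cell and myeloid counterpart. Lcp2 (SLP-76) held 99.97% ± 0.0239 of the SLP-76 family, in which Blnk serves B cells. Lck held 67.7% ± 0.330 and Fyn 31.6% ± 0.363 of 8 SRC family kinases, and the myeloid and B cell member Lyn held 0.0520% ± 0.00711. Plcg1, the phospholipase downstream of LAT, held 95.5% ± 0.540 against 4.55% ± 0.540 for Plcg2. Pik3cd, the leukocyte p110δ catalytic subunit of PI3K, held 79.0% ± 0.303, and Rac2, the haematopoietic RAC, 78.7% ± 0.484. In each of these families the leading gene was the one known from T cells or leukocytes. Other signalling families were divided more evenly. Of 9 PKC genes, for which no order is given, Prkca held 23.5%, Prkch 22.9% and Prkcq 18.1%. Akt1 held 61.4% ± 0.876 and Akt2 34.0% ± 0.819 of the AKT kinases.

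Ion channel genes were uneven too. Kcnn4, the calcium-activated potassium channel KCa3.1, had 208, 204 and 211 CPM. Kcna3, the voltage-gated channel Kv1.3 of lymphocytes, had 0 counts in all 3 libraries, as had Kcna1. Orai1, the pore of the store-operated calcium channel, held 63.7% ± 0.585 of the ORAI genes. An entry at exactly 0 can also arise from the annotation or the counting, which was not tested here.

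Genes of translation, energy metabolism and the cytoskeleton gave the most reads. The 10 highest entries held 6.17% ± 0.00476 of all counts, the 100 highest 21.9% ± 0.183 and the 1000 highest 54.5% ± 0.122 (n = 3). The highest was mt-Co1, the mitochondrially encoded cytochrome c oxidase subunit, with 12878, 13061 and 13133 CPM. Eef1a1 and Eef2, which carry aminoacyl-tRNA to the ribosome and move it along the mRNA, followed with means of 9278 ± 78.3 and 8021 ± 88.0 CPM. The next were Rpsa (5007 ± 80.9 CPM), Actb (4822 ± 47.9 CPM), Rplp0 (4675 ± 55.6 CPM), Hsp90ab1 (4596 ± 67.8 CPM), the entry Rps2-ps10 (4333 ± 13.5 CPM), Pkm (4042 ± 32.0 CPM) and Rpl4 (3860 ± 12.0 CPM). Further down the 30 highest stood the chromatin protein gene Ptma, the ribosomal scaffold Rack1, the nucleolar genes Ncl and Npm1, Tpt1, Pabpc1, Ubb, Ldha, Gapdh, Actg1 and Tuba1b, all between 2068 and 3256 CPM.

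The 94 ribosomal protein genes held 10.4% ± 0.115 of all counts and 88 of them were expressed. Entries named as their pseudogenes were left out of this share and held a further 1.48% ± 0.0217. Elongation and initiation factors held 3.72% ± 0.0133, mitochondrially encoded genes 2.63% ± 0.0307, actins, tubulins and their small partners 1.93% ± 0.00764, glycolytic enzymes 1.70% ± 0.00373 and chaperones 1.49% ± 0.00912. MHC class I genes with B2m held 0.531% ± 0.00261. The glycolytic share counted the enolase entry Eno1 but left out Eno1b (1678 ± 42.6 CPM), so it is too low by that entry. Per kilobase the order of single genes changed: mt-Co1 stayed highest with 8430 CPM per kb, Rplp1, a stalk protein of the ribosome, was next with 6115 CPM per kb, and Eef1a1 (3722 CPM per kb), mt-Cytb (2935 CPM per kb), Rpl41 (2830 CPM per kb), Rplp0 (2818 CPM per kb), mt-Nd1 (2672 CPM per kb) and Eef2 (2413 CPM per kb) were also among the 10 highest. Ptprc (CD45), the abundant phosphatase of the leukocyte surface, reached 1651, 1640 and 1650 CPM, over a long exon sequence that gave 89.9 CPM per kb.

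Some of the high entries carry the names of pseudogenes. Rps2-ps10 took 96.1% ± 0.0697 of the reads it shared with Rps2, and Rps18-ps6 took 95.1% ± 0.181 of those it shared with Rps18. Of 22 pseudogene entries at 100 CPM or more that have a parent symbol in the table, 8 stood above the parent, among them Rpl3-ps1 (1738 CPM, with Rpl3 at 1281 CPM) and Rpl10-ps3 (1113 CPM, with Rpl10 at 384 CPM). Processed pseudogenes are near-identical to their parents, so the division of reads within such a pair is uncertain and the sum of the pair is the safer value.

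Promoter windows are described by CpG content and TATAAA. In windows of 250 bases before the annotated start (RefSeq, GRCm38.p6; 16424 entries matched by symbol), 77.4% of 8561 expressed protein-coding genes had at least 10 CpG dinucleotides, with a median of 16. Among 3770 protein-coding genes with 0 counts the share was 16.2% and the median 2. The sequence TATAAA on the gene's strand within the last 50 bases, the usual place of a TATA box, was present in 1.16% of the expressed and 7.45% of the undetected genes, and in 3.43% of all matched windows. Of 28 matched interleukin genes 6 (21.4%) held it, and of 22 matched replication and mitosis genes none did, while 72.7% of that list had at least 10 CpG. Of 9 matched CD4 T cell markers none had 10 CpG, although all are expressed in these cells. Shown are Rplp0, a ribosomal gene with 19 CpG (chr5:115559217-115559466, plus strand, CpG in capitals), Irf4, an induced transcription factor with 11 CpG (chr13:30748983-30749232, plus strand, CpG in capitals), and Il2, an induced cytokine with 2 CpG (chr3:37125955-37126204, minus strand, TATAAA in capitals), each written 5′ to 3′ up to the base before the start.
Rplp0: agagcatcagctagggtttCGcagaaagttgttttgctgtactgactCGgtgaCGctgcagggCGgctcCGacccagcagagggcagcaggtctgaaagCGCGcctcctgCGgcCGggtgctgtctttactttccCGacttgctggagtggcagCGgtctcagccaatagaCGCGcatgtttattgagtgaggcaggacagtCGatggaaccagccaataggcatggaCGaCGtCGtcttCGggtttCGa
Irf4: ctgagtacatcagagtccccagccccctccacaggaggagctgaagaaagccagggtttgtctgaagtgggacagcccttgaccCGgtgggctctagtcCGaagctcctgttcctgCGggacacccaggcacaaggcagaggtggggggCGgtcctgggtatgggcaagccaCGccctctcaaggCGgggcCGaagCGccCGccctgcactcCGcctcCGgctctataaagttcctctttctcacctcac
Il2: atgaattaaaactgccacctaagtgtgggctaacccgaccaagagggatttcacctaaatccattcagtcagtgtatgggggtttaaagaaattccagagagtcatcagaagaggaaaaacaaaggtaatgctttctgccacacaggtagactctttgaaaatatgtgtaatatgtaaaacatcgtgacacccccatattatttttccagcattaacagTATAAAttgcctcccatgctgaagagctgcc
The capitals in the Il2 window begin 31 bases before the start. The Irf4 window also holds TATAAA, 26 bases before the start. A match to these letters describes the window and says nothing about binding.

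Division genes were high in all libraries. All 25 listed replication and mitosis genes were expressed, beside 42.4% of all entries and 52.9% of protein-coding entries. Their summed level was 7661 to 7719 CPM. Top2a, which untangles DNA, had 774, 771 and 771 CPM, Mki67, the proliferation marker Ki-67, had 721, 721 and 698 CPM and Pcna, the sliding clamp of replication, had 659, 678 and 679 CPM. The replicative helicase genes Mcm2 to Mcm7 ran from 236 to 561 CPM and Rrm2, the regulated subunit of ribonucleotide reductase, had 99.1% ± 0.0127 of its pair with Rrm2b. The mitotic kinases Plk1 (113 to 116 CPM), Aurkb (152 to 161 CPM) and Aurka (55.1 to 56.9 CPM) were lower in CPM.

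Cell cycle paralogs were chosen clearly where an order could be given. Cdk4 held 91.4% ± 0.252 of its pair with Cdk6, Ccna2 held all of the counts of the A cyclins, with Ccna1 at 0, and Ccne1 held 81.6% ± 0.959 of the E cyclins. Cdkn1a (p21) held 81.4% ± 0.525 of the CIP/KIP inhibitors and Cdkn2d 79.3% ± 0.939 of the INK4 inhibitors, in which Cdkn2a held 1.38% ± 0.384. Among D cyclins Ccnd1 held 0.101% ± 0.0434. Whether Ccnd2 or Ccnd3 led turned on the length used. E2f4 held 59.1% ± 1.09 of 8 E2F genes, Dnmt1, the maintenance methyltransferase, 80.2% ± 0.386 of its family, and Ezh2 85.1% ± 0.609 of its pair with Ezh1. Among genes of cell death, Mcl1 held 34.9% ± 0.519 of the anti-apoptotic BCL2 genes, Bcl2 3.40% ± 0.0798, and Bax 70.1% ± 0.122 of the effectors. Bcl2a1b and Bcl2a1d, recent duplicates whose reads can be divided either way, held 26.7% ± 1.20 and 21.3% ± 1.31.

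Genes of activation and genes of the naive state were expressed side by side. All 14 activation surface genes and all 16 naive and memory genes were expressed in all 3 libraries, beside 42.4% of all entries. Il2ra (CD25), the high-affinity chain of the interleukin-2 receptor, had 418, 410 and 408 CPM, Tfrc, the transferrin receptor of growing cells, had 694, 697 and 686 CPM, and Cd69 had 178, 166 and 172 CPM. The co-stimulatory TNF receptors Tnfrsf18 (GITR, 236 to 254 CPM), Tnfrsf4 (OX40, 205 to 212 CPM) and Tnfrsf9 (4-1BB, 177 to 190 CPM) were of similar CPM, and Icos (54.5 to 55.5 CPM) and Cd83 (14.2 to 14.6 CPM) were lower. Entpd1 (CD39) had 1.10, 1.09 and 1.80 CPM and Nt5e (CD73) 6.04 to 7.66 CPM.

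Of the naive genes, Ccr7, the receptor that directs cells into lymph nodes, was highest in CPM, with 738, 746 and 742. Cd44, which memory and activated cells carry, had 192, 187 and 186 CPM. Il7r, the interleukin-7 receptor of resting T cells, had 7.51, 7.27 and 7.58 CPM, and S1pr1, the receptor for exit from lymphoid tissue, 8.01, 9.84 and 7.71 CPM. Klf2, which drives S1pr1, had 44.6 to 45.9 CPM. Il7r and S1pr1 had the fewest reads of the naive list, in CPM. Among sphingosine-1-phosphate receptors S1pr4, not S1pr1, led, with 77.7% ± 1.82 of the summed CPM per kb.

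Immediate early genes, which respond within an hour of receptor signalling, were all counted on day 3. All 18 were expressed, beside 42.4% of all entries and 52.9% of protein-coding entries. Nr4a1, an orphan nuclear receptor that reports T cell receptor signals, had 209, 209 and 206 CPM, Fosb had 151, 142 and 138 CPM and Myc, the regulator of growth, had 112, 105 and 106 CPM. Egr1, Egr2 and Egr3 had 46.3 to 51.4, 27.8 to 27.9 and 61.5 to 65.7 CPM. Myc held 98.8% ± 0.0684 of the MYC family, Nr4a1 55.2% ± 0.742 of the NR4A family, Egr3 41.3% ± 1.01 of the EGR family and Batf 98.01% ± 0.513 of the BATF family. Fosb led the FOS genes with 44.5% ± 2.16, ahead of Fos with 32.4% ± 1.26.

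Of 32 lineage transcription factors 26 were expressed, beside 42.4% of all entries. Irf4, which rises with the strength of receptor signalling, had 497, 496 and 492 CPM and Bhlhe40, which favours inflammatory cytokines, 436, 438 and 420 CPM. The factors of the naive and quiescent state came next in CPM: Satb1 381 to 384, Bach2 290 to 297, Tcf7 235 to 245 and Lef1 171 to 184. Runx3 (68.2 to 72.3 CPM), Zbtb32 (63.8 to 66.3 CPM) and Tox (50.8 to 54.0 CPM) completed the 10 highest in CPM with Zbtb7b. Tcf7 held 81.3% ± 0.927 of the TCF family per kilobase, Runx3 76.8% ± 1.20 of the RUNX family and Ikzf1 82.4% ± 0.448 of the IKZF family. The CPM order is partly one of length, since Lef1 had 20.2 CPM per kb and Runx3 13.98 CPM per kb.

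Master factors of several helper types were counted together. Gata3 (Th2) had 39.0, 40.9 and 37.3 CPM, Tbx21 (T-bet, Th1) 29.8, 28.9 and 27.4 CPM and Bcl6 (follicular) 14.5, 14.1 and 14.2 CPM. Rora (Th17) had 13.1 to 15.2 CPM, and Foxp3 (regulatory) 5.71, 6.63 and 7.58 CPM. Per kilobase Tbx21 and Gata3 were close, at 11.5 and 9.82 CPM per kb, with Tbx21 holding 92.9% ± 0.667 of its pair with Eomes and Gata3 92.0% ± 2.35 of the GATA family. Prdm1 (Blimp-1) had 0.801, 0.544 and 0.838 CPM, Maf 1.15, 1.39 and 1.97 CPM and Ahr 0.951, 2.28 and 1.38 CPM. The myeloid and B cell factors Spi1, Cebpa and Pax5 each stayed under 0.6 CPM. Bulk RNA does not show whether single cells held more than 1 of these factors.

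**Figure D2:**
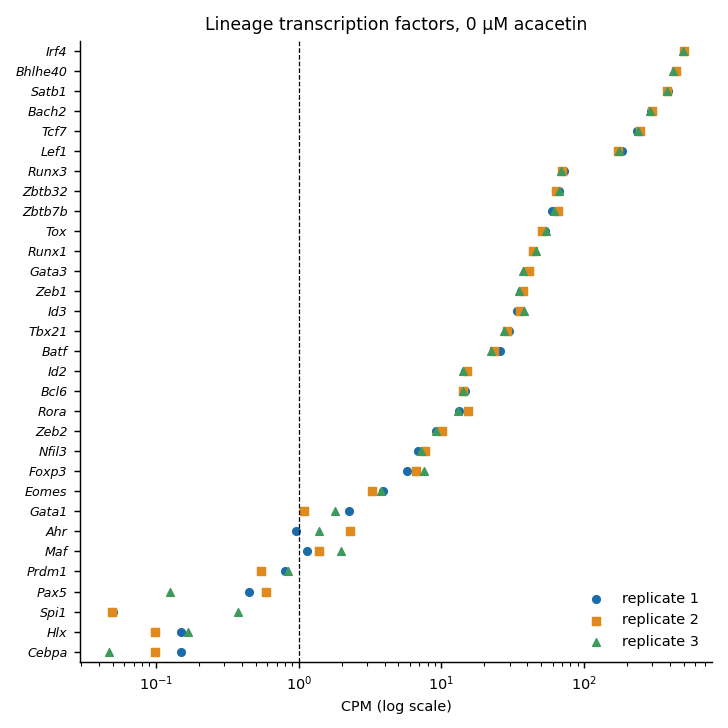
CPM (log axis) of lineage transcription factors in each of the 3 libraries, ordered by their mean, with 1 symbol per replicate; the dashed line marks 1 CPM, and values under 0.0468 CPM are drawn there. Irf4, Bhlhe40, Satb1, Bach2, Tcf7 and Lef1 sit at 171 CPM or more, Gata3 and Tbx21 between 27 and 41 CPM and Foxp3 between 5.71 and 7.58 CPM.

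Few cytokine genes were expressed. Of 40 interleukin, colony-stimulating factor and related genes 8 were expressed and 13 silent, against 42.4% and 43.3% of all entries. Il16, a CD4 ligand made as a precursor by resting lymphocytes, had 79.4, 80.1 and 87.8 CPM. Il2, the growth factor of activated T cells, had 66.1, 63.4 and 63.0 CPM, and Lif, of the interleukin-6 family, 43.3, 41.8 and 41.0 CPM. Csf1 (16.8 to 17.2 CPM), Osm (9.55 to 10.2 CPM), Ebi3 (7.54 to 8.11 CPM), Il3 (2.00 to 2.72 CPM) and Csf2 (1.09 to 1.63 CPM) made up the rest.

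The signature cytokines of the helper types were at or under a few CPM. Ifng (Th1) had 2.75, 3.07 and 3.23 CPM, and it was the only 1 of 9 interferon genes expressed. The Th2 genes Il13 (1.00, 0.792 and 1.05 CPM), Il5 (0.1001, 0.396 and 0.251 CPM) and Il4 (0.1001, 0.0495 and 0.293 CPM) were near or under the threshold. Il17a (Th17) had 0.150, 0.0495 and 0 CPM, Il17f 0.200, 0.297 and 0.209 CPM and Il22 0.200, 0.0495 and 0 CPM. Il21 had 0.751, 0.742 and 0.209 CPM, Il10 0.751, 0.198 and 0.377 CPM, and Il9 had 0 counts. At these levels a library held few reads for each gene other than Ifng, so their order is not read.

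Membrane-bound and other ligands follow. Of 18 TNF superfamily ligands 12 were expressed, beside 42.4% of all entries. Tnfsf8 (CD30 ligand) had 171, 168 and 162 CPM, Ltb (lymphotoxin β) 144, 140 and 140 CPM, Tnfsf11 (RANKL) 71.2, 68.3 and 69.7 CPM and Cd40lg, through which helper cells license B cells, 59.7, 56.3 and 59.1 CPM. Lta had 36.1 to 40.04 CPM and Tnf 20.6 to 21.6 CPM. Tgfb1, the immunosuppressive transforming growth factor, had 201, 195 and 195 CPM and 99.5% ± 0.0777 of the 3 TGF-β isoforms. Of 31 chemokines 7 were expressed, beside the same 42.4%, led in CPM by Ccl3 (33.6, 34.5 and 35.4 CPM) and Ccl4 (20.1, 18.5 and 18.7 CPM), both attractants of inflammatory cells. Ccl25, Ccl22, Ccl5, Xcl1 and Ccl6 lay between 1.04 and 5.54 CPM. The chemokines Ccl2, Ccl7, Ccl11, Cxcl5 and Cxcl12 had 0 counts.

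**Figure D3:**
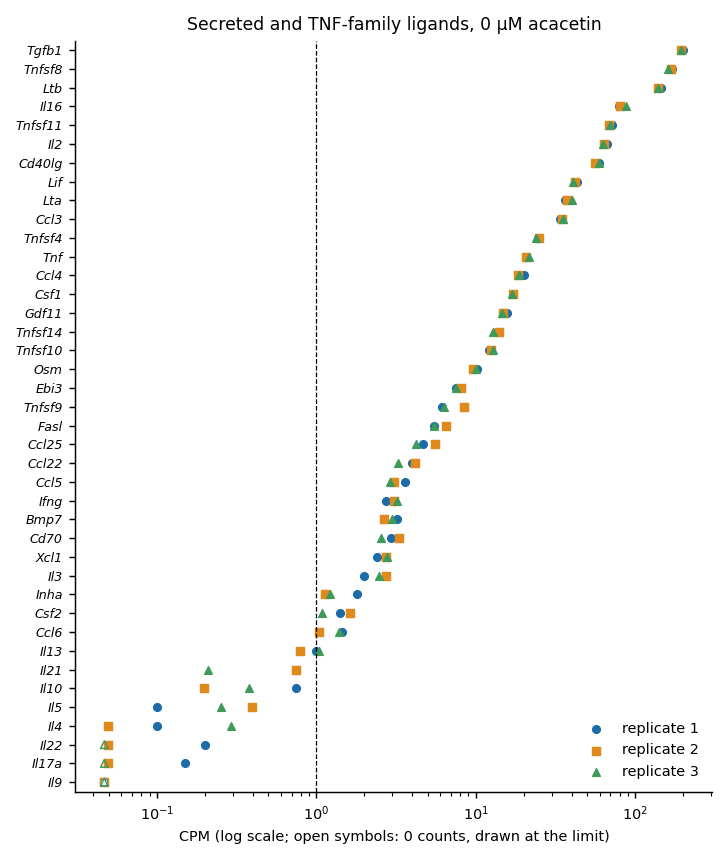
CPM (log axis) of every cytokine, TNF-family, TGF-β-family and chemokine gene expressed in all 3 libraries, and below them 8 helper-type cytokines that were not, with 1 symbol per replicate; the dashed line marks 1 CPM and open symbols are 0 counts, drawn at 0.0468 CPM. Tgfb1, Tnfsf8 and Ltb sit above 130 CPM, Il2 at 63.0 to 66.1 CPM and Il4, Il17a and Il22 under 0.3 CPM in every library.

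Receptor genes for many cytokines were expressed. Of 43 interleukin receptor genes 24 were expressed, beside 42.4% of all entries. This share was near the 52.9% of protein-coding entries. The 3 chains of the interleukin-2 receptor led in CPM, with the common γ chain Il2rg at 428, 433 and 415 CPM, Il2ra as above and Il2rb at 246, 243 and 247 CPM. Il12rb1, shared by the receptors of both interleukin-12 and interleukin-23, had 237, 238 and 237 CPM, while the specific chains Il12rb2 and Il23r had 6.87 to 8.16 CPM and 0 counts. Il21r (182 to 184 CPM), Il4ra (148 to 158 CPM), Il27ra (133 to 149 CPM), Il17ra (85.6 to 90.8 CPM), Il6ra (81.5 to 87.2 CPM) and its partner Il6st (68.7 to 70.0 CPM) followed. Crlf2, Il15ra, Csf2ra, Il10rb, Il1rap, Il20rb and Il3ra lay between 10.8 and 47.9 CPM, and Il10ra, Il18rap, Il18r1, Il11ra1 and Csf2rb under 6. The cells thus carried transcripts for receptors of cytokines, such as interleukin-4 and interleukin-21, whose own genes were near the limit of detection.

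Of 32 interferon, TNF and TGF-β receptor genes 27 were expressed, beside 42.4% of all entries, and none was silent. Tgfbr2 had 91.9 to 93.6 CPM and Tgfbr1 17.9 to 20.9 CPM, Ifnar1 89.4 to 95.8 CPM and Ifnar2 27.4 to 30.6 CPM, and Ifngr1 and Ifngr2 27.1 to 31.6 CPM. Cd27 had 63.9 to 69.6 CPM and Fas, the death receptor, 42.9 to 44.2 CPM. Tnfrsf1b (TNFR2) held 67.9% ± 1.59 and Tnfrsf1a 32.1% ± 1.59 of their pair per kilobase. Of 22 chemokine receptors 9 were expressed, a share near the 42.4% of all entries. After Ccr7 came Ccr4 (22.4, 21.8 and 24.3 CPM) and Ccr8 (11.4, 11.7 and 12.8 CPM), both known from Th2 and regulatory cells, and Cxcr3 (3.51 to 4.36 CPM), Cxcr5 (3.15 to 3.35 CPM), Cxcr4 (2.60 to 3.27 CPM), Cxcr2 (1.34 to 1.51 CPM) and Cxcr6 (1.24 to 1.34 CPM) were lower.

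Innate sensors inside the cell and at its surface were both counted. Sting1, the adaptor of the cytosolic DNA response, had 133, 141 and 138 CPM. The RNA sensor Ifih1 (MDA5) had 60.9, 56.2 and 60.02 CPM and the DNA sensor Aim2 43.6, 45.1 and 44.7 CPM. Of the Toll-like receptors Tlr1 (24.6 to 25.7 CPM), Tlr6 (4.70 to 6.16 CPM) and Tlr7 (1.63 to 1.98 CPM) were expressed, Tlr2, Tlr4 and Tlr9 stayed under 1.3 CPM, and Tlr3, Tlr5 and Tlr8 had 0 counts.

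Inhibitory receptors and ligands were expressed in 11 of 14 cases, beside 42.4% of all entries. Btla had 196, 187 and 192 CPM, Cd274 (PD-L1) 190, 182 and 184 CPM, Vsir (VISTA) 163, 168 and 169 CPM and Lag3 135, 136 and 132 CPM. Ctla4 had 121, 125 and 122 CPM, Pdcd1 (PD-1) 70.8, 68.3 and 71.9 CPM and Tigit 26.7, 25.1 and 25.1 CPM. Havcr2 (TIM-3) had 0.951, 0.594 and 0.586 CPM, Cd244a (2B4) 0.401, 0.198 and 0.0419 CPM and Pvrig 0 counts. These 3 were the members not expressed in every library.

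By helper type, 12 of 13 Th1 genes, 3 of 11 Th2 genes and 2 of 10 Th17 genes were expressed. So were 5 of 9 follicular genes and 9 of 12 regulatory genes, beside 42.4% of all entries and 52.9% of protein-coding entries. Several of these are shared with activation at large (Il2ra, Ctla4 and Tnfrsf18 among the regulatory genes, Pdcd1 among the follicular ones). The Th1 list owed its highest values to Runx3, to Stat4, the signal transducer of interleukin-12 (49.8 to 52.0 CPM), and to Gzmb. The follicular list owed its highest value to Pou2af1 (OBF-1), a coactivator also known from B cells, at 116, 115 and 114 CPM. The other regulatory genes lay below these shared ones in CPM. Gpr83 had 12.77 to 14.28, Ikzf4 11.98 to 14.15, Ebi3 7.54 to 8.11 and Nrp1 6.16 to 6.74 CPM. Ikzf2 (Helios) had 3.27 to 3.61 CPM and Lrrc32 (GARP) 0.601 to 0.838 CPM.

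Of 15 cytotoxic genes 7 were expressed, a share near the 42.4% of all entries, with Srgn (serglycin), a proteoglycan of granules in many leukocytes, at 334, 342 and 346 CPM. Gzmb (granzyme B) had 46.4, 48.1 and 51.7 CPM and 94.5% ± 1.56 of the summed CPM per kb of 9 granzymes. Its partner Prf1 (perforin) had 1.20, 1.83 and 1.47 CPM, Gzma 0.601, 0.445 and 0.712 CPM, and Gzmk and Gzmg 0 counts. Nkg7 (17.2 to 18.6 CPM), Crtam (14.6 to 16.4 CPM), Tnfsf10 (TRAIL, 12.2 to 12.9 CPM) and Fasl (5.45 to 6.48 CPM) were the other expressed members. Adhesion genes centred on LFA-1, with Itgal at 633, 646 and 620 CPM and Itgb2 at 239, 239 and 232 CPM, while Itgam, Itgax and Itgad, the other partners of Itgb2, stayed under 0.3 CPM and Vcam1 had 0 counts.

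Most metabolic families had a clear leader. In glycolysis Slc2a1 (GLUT1) held 65.6% ± 0.808 of 6 glucose transporters, with Slc2a3 at 18.5% ± 0.230. Hk1 held 64.6% ± 1.08 and Hk2 35.3% ± 1.07 of the hexokinases, and Pfkp 50.5% ± 0.320, Pfkl 37.8% ± 0.196 and Pfkm 11.7% ± 0.197 of the phosphofructokinases. In aldolase, phosphoglycerate kinase, pyruvate kinase and lactate dehydrogenase 1 form was nearly alone. Aldoa held 99.6% ± 0.0807, Ldha 94.4% ± 0.120, and Pgk1 and Pkm all but a trace, since Pgk2 had 0 counts and Pklr 0.000625% of its pair. Eno1b held 79.6% ± 0.563 and Eno1 11.6% ± 0.395 of the enolases, with Eno3 at 7.63%, but the first 2 entries are near-identical in sequence and the division between them is uncertain.

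Lactate export rested on Slc16a1 (MCT1), with 63.0% ± 1.12, and Slc16a3 (MCT4), with 36.2% of 4 monocarboxylate transporters. Pdk3 held 76.7% ± 0.372 and Pdk1 20.5% ± 0.478 of the kinases that restrain pyruvate dehydrogenase, and Pdk4 had 0 counts. In the mitochondrion Idh2 held 97.3% ± 0.371 against cytosolic Idh1 in the NADP-linked pair, and Shmt2 76.1% ± 0.281 against cytosolic Shmt1. In both, the mitochondrial form led. Hif1a, the oxygen-regulated factor, held 99.3% ± 0.0308 of its family, and Cox4i1 and Cox6a1, the common subunits of cytochrome c oxidase, more than 99.9% each.

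Slc1a5 (ASCT2), the glutamine carrier, held 97.0% ± 0.190 of 5 SLC1 transporters, Slc7a5 (LAT1) 76.5% ± 0.657 of the system L light chains and Slc7a1 97.2% ± 0.763 of the cationic carriers. Odc1, which starts polyamine synthesis, held 99.8% ± 0.0238 of a set with the 2 arginases. Acaca held 89.6% ± 0.673 of the acetyl-CoA carboxylases, Scd2 98.9% ± 0.0375 of the stearoyl-CoA desaturases, Acsl5 70.3% ± 0.123 of the long-chain acyl-CoA synthetases, Cpt1a 93.9% ± 1.22 of the CPT1 genes and Srebf2, the regulator of cholesterol synthesis, 78.8% ± 0.559 of its pair with Srebf1. Ckb held 96.0% ± 0.509 of the creatine kinases, with the muscle form Ckm almost absent. In antioxidant defence Sod1 held 88.6% ± 0.0718 and Gpx1 63.9% ± 0.225, with Gpx4 at 35.6%.

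**Figure D4:**
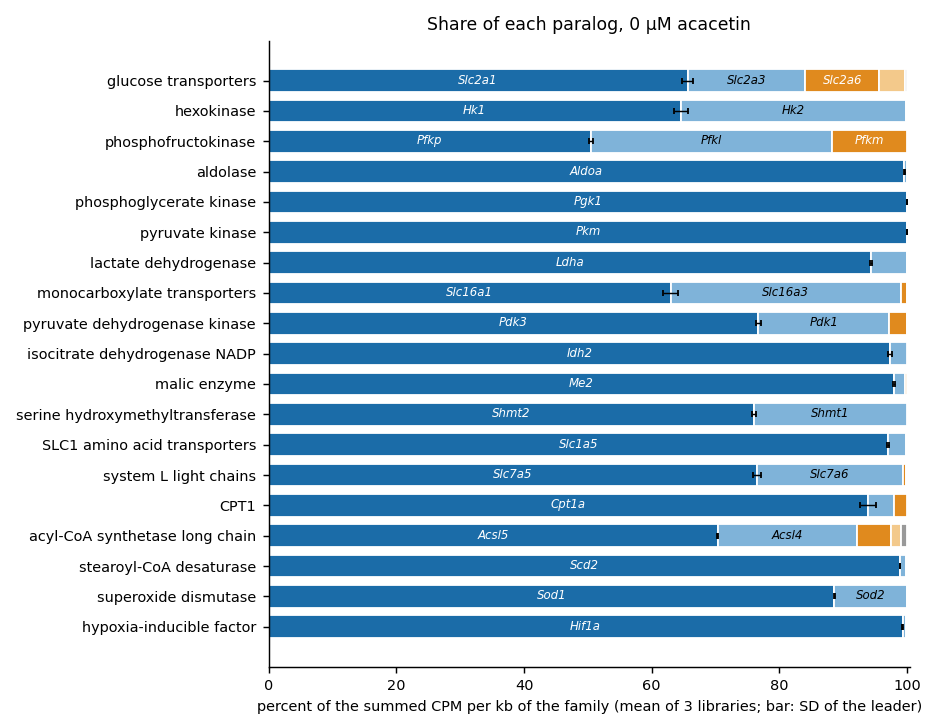
Share of each member (percent, axis from 0 to 100) in the summed CPM per kb of metabolic paralog families, as means of the 3 libraries; the leading member is dark blue and starts at the left, further members follow in light blue, orange and light orange, the rest is grey, and the error bar is the SD of the leader. Aldoa, Pgk1, Pkm, Ldha, Idh2, Me2, Slc1a5, Cpt1a, Scd2 and Hif1a exceed 90%, whereas Pfkp holds 50.5%, Slc16a1 63.0% and Hk1 64.6%.

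Structural genes were divided between partners in steady proportions. Actb held 67.0% ± 0.182 and Actg1 33.0% of the actins per kilobase, with muscle actins a trace. Tubb5 held 66.0% ± 0.483 of the β-tubulins and Tuba1b 75.6% ± 0.558 of the α-tubulins. Myh9 held 92.0% ± 0.282 of the nonmuscle myosins, Cfl1 97.1% ± 0.150 of the cofilins, Pfn1 99.7% ± 0.0496 of the profilins and Lcp1, the leukocyte plastin, 98.9% ± 0.0469. Tmsb4x (56.3% ± 0.759) and Tmsb10 (43.6%) shared the thymosins. H2-D1 held 53.5% ± 0.719 and H2-K1 35.3% ± 0.503 of 5 MHC class I heavy chain genes, which also cross-match in sequence. Constitutive and interferon-inducible catalytic subunits of the proteasome were both present: Psmb8 and Psmb5 had 122 and 121 CPM per kb and overlapped between libraries, and Psmb7 held 62.9% ± 0.910 of its pair with the inducible Psmb10.

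The 3 libraries agreed closely. Over 8426 genes at 10 CPM or more the median coefficient of variation was 3.04%. The Poisson formula for counting error gave a median of 2.96% at the mean depth. The 2 are not like measures, since a coefficient estimated from 3 libraries tends to fall below the true one. Whether the spread exceeded counting error is therefore read from the chi-square values below, which all lay above 1. The coefficient exceeded 10% in 223 genes and 20% in 14. No pair of libraries was a copy: the mean chi-square of their counts per gene was 3.33 for replicates 1 and 2, 3.70 for 1 and 3, and 1.99 for 2 and 3, where sampling noise gives 1. The chi-square covered at least 12719 genes a pair. Pearson's r of log2(CPM + 1) across the 10918 expressed entries was 0.997 to 0.998, as a description, since genes are not independent replicates.

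The most variable genes set replicate 1 apart in ribosomal RNA. Rn18s, the 18S ribosomal RNA, had 1191, 2934 and 2989 CPM in replicates 1, 2 and 3. Cmss1 had 185.5, 479.7 and 475.3 CPM, Gphn 70.5, 124.5 and 129.2 CPM and Lars2 75.4, 116.1 and 117.4 CPM, so all were lowest in replicate 1. The mitochondrial ribosomal RNAs were lowest there too, mt-Rnr1 with 164, 218 and 231 CPM and mt-Rnr2 with 478, 564 and 571 CPM. Why these protein-coding entries moved with ribosomal RNA was not tested. The rest of the 10 most variable (Ppp1ccb, Rpl27-ps3, mt-Nd3, E130208F15Rik, Kpna2, Entpd4 and Gemin4) showed no shared order of libraries, and of the 10, 4 were lowest and 3 highest in replicate 1. None of the 10 belongs to the immune gene lists.

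**Figure D5:**
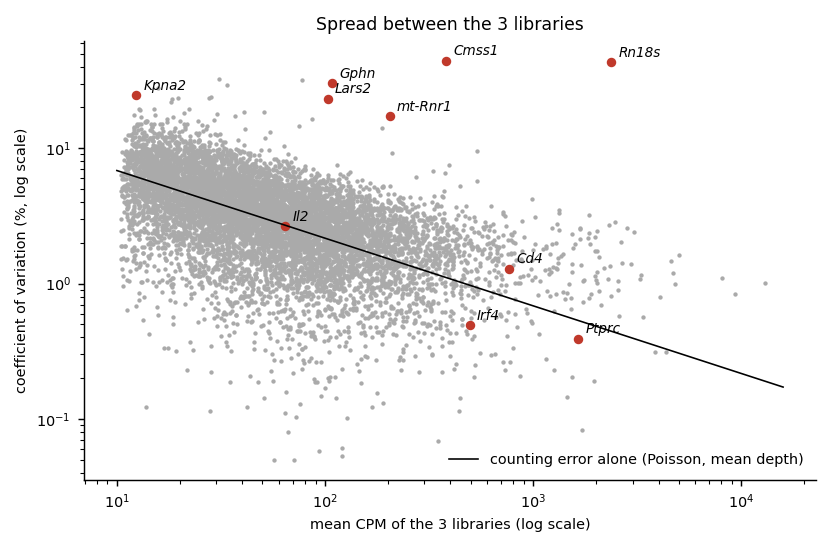
Coefficient of variation over the 3 libraries (percent, log axis) against mean CPM (log axis) for the 8426 genes at 10 CPM or more in every library; the line is counting error alone at the mean depth, and named genes are red. Cmss1 and Rn18s stand far above the line with 44.4% and 43.1%, while Il2, Irf4, Cd4 and Ptprc lie among the bulk of genes.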

How the data were processed

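Total RNA of CD4+ T cells was isolated by the study, and by its methods mRNA was copied into cDNA and sequenced. The methods name HISAT2 and StringTie, and the submitters' processing notes name GRCm39. The authors deposited a table of expected counts per gene symbol, of which 24.16% of the values used were not whole. Which tool made these counts is not stated for the table. The 3 columns labelled 0 μM acacetin were used and 6 columns of other doses were not. Counts were rounded and divided by the library total to give CPM (Python 3.11.15, pandas 2.3.3). Exon lengths came from a GRCm38 annotation, by symbol, for 24563 entries that hold 99.62% of counts, and promoters from RefSeq. 70 symbols are shared by 964 entries. With 1 group there was no comparison between groups and no test, and scripts were tested on simulated data.

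Genes, lists and families were chosen with earlier results of these data known. Named are list members, the 30 entries of highest CPM, the 10 highest per kb, family leaders and next members, and the 10 most variable genes. Genes outside this rule (Ptprc, Lars2, mt-Rnr1 and mt-Rnr2 among them) were chosen after their values were seen. Alternatives were TMM and RLE factors (edgeR 4.0.16), other thresholds, other gene lengths and leaving out each replicate. Some genes of the lists and families are not reported here.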

Additional observations from a re-analysis of the deposited data

How the results depend on the processing

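No paired analysis was possible because only 1 group was used. Of 48 alternative values of the summaries, 46 stayed within their limits. For percentages of counts the limit was the SD over the 3 libraries. For other values it was a fold limit, wide enough that 66 single-leader families in place of 47 fell within it. The tally of 46 therefore says little about how stable those values are. With mitochondrial genes left out of the total, the 10 most abundant entries held 5.33% and the 100 most abundant 20.64% of counts. The number of expressed entries was 10898 with TMM or RLE factors, 11574 at 0.5 CPM and 10312 at 2 CPM. Leaving out 1 replicate gave 10988 to 11012 expressed entries. Families with 1 member at 90% or more numbered 49 with the longest transcript as length, 47 with no length and 66 at a threshold of 80%. The leader changed in 16 families with the longest transcript and in 15 with no length, and the principal transcript as length, an alternative chosen after seeing the data, left 140 of the 158 families it covered with the same leader. Paralog shares therefore depend on the length used, and levels under 1 CPM rest on few reads.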
